A study of Mus musculus with 18 samples.

Results

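Transcript levels of the 8 mouse genes of the CIDE and perilipin families were measured in brown and white adipose tissue. The members were the rows whose symbol was Cidea, Cideb, Cidec, Plin1, Plin2, Plin3, Plin4 or Plin5, and all 8 were found among the 54347 rows of the gene table. Polyadenylated RNA was sequenced from the interscapular brown depot (iBAT) and from 2 white depots, the inguinal (iWAT) and the epididymal (eWAT), of 12 week old C57BL/6N mice fed chow. Wild type mice (wt) were compared with litter mates homozygous for a CRISPR/Cas9 deletion of exon 1 of the long noncoding RNA gene Gm15551 (ko). The 18 libraries came from 6 mice, 3 of each genotype, and each mouse gave 1 library per tissue.

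Both families sit on the surface of lipid droplets, the organelles in which fat cells store triglyceride. CIDE proteins gather at the contact between droplets and move lipid from the smaller to the larger one, and CIDEA is a classical marker of brown fat while CIDEC (FSP27) promotes the single large droplet of white fat cells. Perilipins coat the droplet and govern the access of lipases. PLIN1 is the main coat protein of fat cells, PLIN2 and PLIN3 are found in most cell types, PLIN4 is abundant in white adipose tissue, and PLIN5 is typical of tissues that burn fat and tethers droplets to mitochondria.

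Total counts per library lay between 14997901 and 34389586, the lowest and the highest both in eWAT, and iBAT libraries had 19968075 to 24828001. Gm15551 itself had 40 to 316 counts in the wild type and 0 to 4 in the knockout libraries. The 6 common adipocyte markers summed to 20344 to 23032 CPM (counts divided by library totals scaled by TMM, the trimmed mean of M values) in iBAT, compared with 10157 to 28082 CPM in iWAT and 12663 to 29417 CPM in eWAT, and the 7 brown adipocyte markers to at least 5064 in iBAT against at most 213.03 in iWAT and 25.8 in eWAT. Some white libraries carried markers of other tissues. The 7 lymph node markers reached 821.7 CPM in iWAT wt replicate 3 and 367.6 in iWAT ko replicate 2, against 3.21 in the lowest iWAT library. The 7 macrophage markers were highest in the same libraries, at 1467 and 1386 CPM. Skeletal muscle markers reached 4641 CPM in iWAT ko replicate 1 against 5.77 at most in the other iWAT libraries, and epididymis markers 4824 CPM in eWAT ko replicate 3 against 16.7. The lowest adipocyte sums belonged to iWAT wt replicate 3 and eWAT ko replicate 3, and these libraries were also low in several members, as given below. In bulk tissue, fewer fat cells and less RNA per fat cell cannot be told apart.

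In GRCm38 Plin4 (ENSMUSG00000002831.14, chr17:56100591-56109803) and Plin5 (ENSMUSG00000011305.11, chr17:56111601-56117596) are neighbours on the minus strand, 1797 bp apart with 0 protein-coding genes between them, and Plin3 (ENSMUSG00000024197.10, chr17:56277476-56292873) follows 159879 bp beyond Plin5 with 7 coding genes between. Plin1 (ENSMUSG00000030546.14) lies at chr7:79720218-79732903, Plin2 (ENSMUSG00000028494.12) at chr4:86648386-86670060, Cideb (ENSMUSG00000022219.10) at chr14:55754050-55758458 and Cidec (ENSMUSG00000030278.11) at chr6:113424634-113435760. The sequences of 250 bases before an annotated start are shown for Plin5 and Plin4, because these neighbours differed between the depots in opposite directions, and for Cidec, the CIDE gene with the higher level in white fat. They were taken from RefSeq (GRCm38.p6), are all on the minus strand and read 5′ to 3′, and span chr17:56117549-56117798 for Plin5, chr17:56109783-56110032 for Plin4 and chr6:113435761-113436010 for Cidec. Capitals mark matches to the nuclear receptor half-site AGGTCA or the CCAAT box on either strand.
Plin5: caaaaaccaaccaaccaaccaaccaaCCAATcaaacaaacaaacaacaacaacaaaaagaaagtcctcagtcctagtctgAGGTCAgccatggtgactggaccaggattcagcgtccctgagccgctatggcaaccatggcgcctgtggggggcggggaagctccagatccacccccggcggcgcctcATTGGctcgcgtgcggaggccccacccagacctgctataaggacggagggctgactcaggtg
Plin4: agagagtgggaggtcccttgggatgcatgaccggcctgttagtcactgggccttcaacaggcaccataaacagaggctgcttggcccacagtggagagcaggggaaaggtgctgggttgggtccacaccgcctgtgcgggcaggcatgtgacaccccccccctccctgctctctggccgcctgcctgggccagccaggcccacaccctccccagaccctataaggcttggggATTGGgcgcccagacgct
Cidec: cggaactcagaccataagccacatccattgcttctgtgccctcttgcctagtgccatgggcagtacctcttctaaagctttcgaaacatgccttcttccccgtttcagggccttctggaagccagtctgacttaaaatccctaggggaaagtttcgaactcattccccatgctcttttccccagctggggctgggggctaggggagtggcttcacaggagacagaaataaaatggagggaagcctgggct
The window of Plin5 held 1 AGGTCA and 2 CCAAT matches, that of Plin4 held 1 CCAAT and 0 AGGTCA matches, and that of Cidec held neither. A further annotated start of Plin5 has the window chr17:56117299-56117548, which held 0 matches to either, as did that of a further start of Cidec. Of 32851 promoters of this length, 14.0% held AGGTCA and 33.8% held CCAAT. The extended half-site TCAAGGTCA, the direct repeat of the half-site with 1 base between, both of which contain the half-site, and the TATA core TATAAA were found in none of the 3 windows, and in 0.387%, 0.0335% and 12.4% of all promoters. RefSeq entries were matched for 7 of the 8 members. A match describes letters in a window and not a bound site.

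The members were compared between depots to ask which paralogs brown and white fat use. Cideb is left out of the counts in this paragraph, since it passed the filter on low counts only through iBAT, where it was high. Of the other 7 members, 4 were higher and 2 lower in iBAT than in iWAT, and 1 did not pass the test (adjusted p under 0.05). Of the 18728 genes tested, 54.3% passed in this comparison, 24.0% higher and 30.3% lower in iBAT, so a difference between these depots was common. The same split of 4 higher, 2 lower and 1 not passing was found between iBAT and eWAT, where 54.6% of all genes passed, 24.4% higher and 30.2% lower. These comparisons share the iBAT libraries. Between iWAT and eWAT only Cidea passed, being higher in iWAT, against 10.2% of all genes (5.70% higher and 4.50% lower). DESeq2 also called Plin5 there, and limma voom Plin5 and Plin2, with 14.4% and 15.9% of all genes called. The split depends on the scaling: with library totals in place of TMM, 1438 genes were higher and 12804 lower in iBAT than in iWAT, and 4 members were higher and 3 lower. Against eWAT 1579 genes were then higher and 13159 lower, and the members again split into 4 and 3. With wild type libraries alone, 4 were higher, 0 lower and 3 did not pass against iWAT, where 37.8% of all genes passed. The median log2 fold change of the 7 members for iBAT was 1.71 against iWAT and 1.62 against eWAT, compared with -0.14 and -0.17 over all genes tested.

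**Figure D1:**
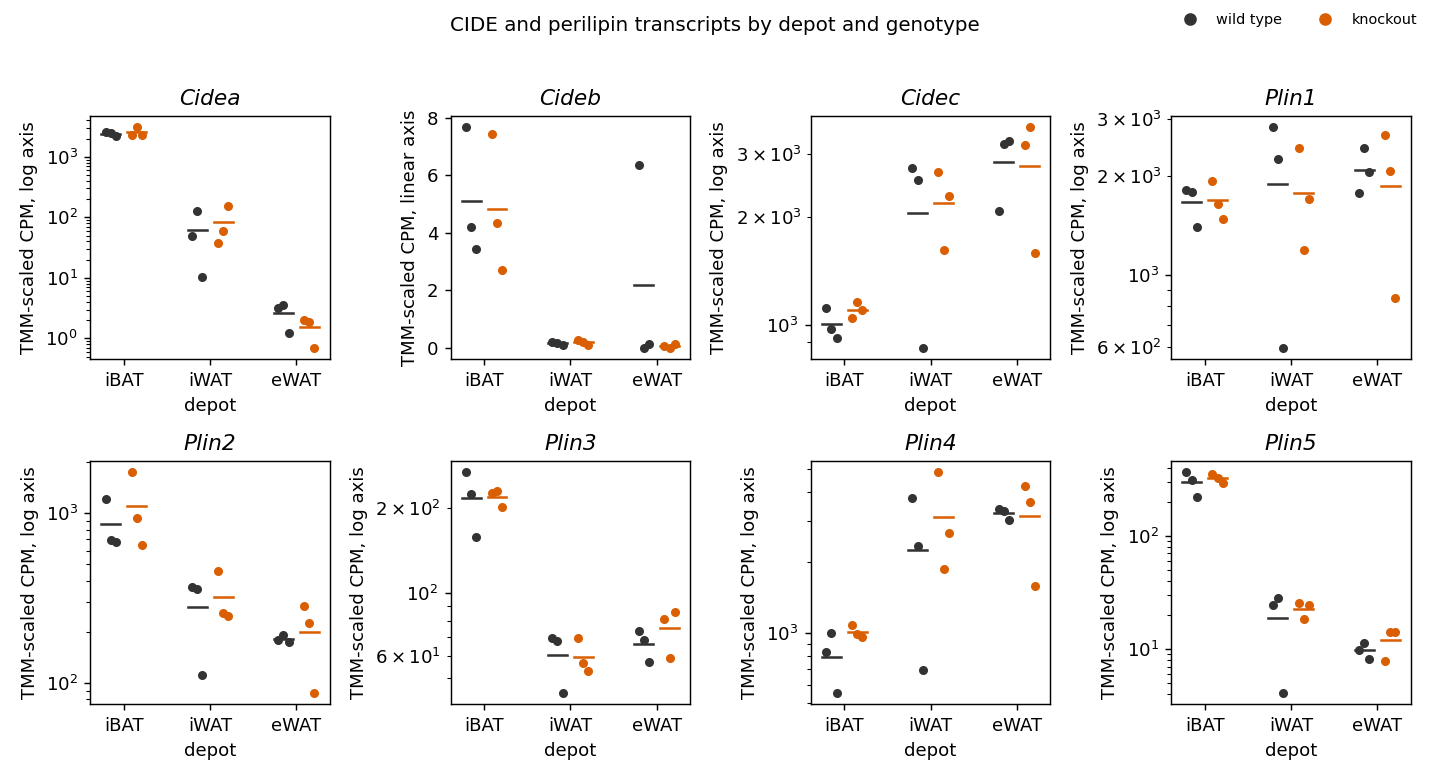
TMM-scaled CPM (vertical axis, logarithmic except for Cideb, which is linear) of the 8 members by depot, with 1 point per library, wild type in black and knockout in orange, and a bar at the mean of each group of 3. Cidea, Plin2, Plin3 and Plin5 of iBAT lie above both white depots without overlap, and 1 wild type eWAT library stands at 6.38 CPM for Cideb.

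Cidea (ENSMUSG00000024526.9, plus strand) lies at chr18:67343604-67367785 and had the widest range of the family. Its lowest, median and highest CPM in iBAT were 2237, 2377 and 3081, those in iWAT 10.3, 53.7 and 153, and those in eWAT 0.693, 1.95 and 3.54. The 3 depots did not overlap, and the order iBAT, iWAT, eWAT held in every mouse. The mean was 34.3-fold higher in iBAT (2486 ± 317 CPM, SD, n = 6) than in iWAT (72.6 ± 55.1, SD, n = 6), and 34.8-fold higher in iWAT than in eWAT (2.08 ± 1.09, SD, n = 6). The log2 fold changes were 5.10 ± 0.55 (SE, adjusted p = 9.06e-07) for iBAT against iWAT, 10.22 ± 0.69 (adjusted p = 3.46e-09) against eWAT, and 5.12 ± 0.57 (adjusted p = 2.55e-05) between iWAT and eWAT.

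Relative to its mean, Cidea varied most in iWAT. It was 48.9, 127 and 10.3 CPM in wt replicates 1 to 3 and 38.2, 58.4 and 153 CPM in ko replicates 1 to 3. Ucp1, the uncoupling protein of thermogenic fat cells, was 2.70, 55.3 and 0.0989 CPM in the same wild type and 3.21, 16.5 and 18.5 CPM in the same knockout libraries. The libraries with the highest Cidea, ko replicate 3 and wt replicate 2, had the highest Ucp1, and wt replicate 3 had the lowest of both. In eWAT, Ucp1 was 0 to 1.34 CPM. In iBAT it was 3422 to 7994 CPM, a wider relative range than that of Cidea.

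Cidec ran the other way. Its lowest, median and highest CPM in iBAT were 922, 1077 and 1158, those in iWAT 864, 2413 and 2738, and those in eWAT 1591, 3192 and 3560. All iBAT libraries were below all eWAT libraries. They overlapped iWAT through wt replicate 3 alone, the library with the highest lymph node markers, since the next lowest iWAT library was at 1621 CPM. The log2 fold change was -1.01 ± 0.26 (SE, adjusted p = 0.00338) against iWAT and -1.42 ± 0.26 (adjusted p = 0.000209) against eWAT. With wild type libraries alone the iBAT against iWAT value was -1.03 and did not pass (adjusted p = 0.0925). Between iWAT and eWAT the value was -0.41 ± 0.26 (adjusted p = 0.337).

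Per unit of gene length, Cidea made up 79.5 ± 1.5% of the summed CIDE level in iBAT, 5.09 ± 3.27% in iWAT and 0.127 ± 0.074% in eWAT (SD, n = 6). Cidec made up 20.4 ± 1.5%, 94.9 ± 3.3% and 99.8 ± 0.2%. With TMM, the summed CIDE level per kilobase was 2801 ± 318 CPM in iBAT, 1207 ± 421 in iWAT and 1517 ± 423 in eWAT. These sums depend on the scaling, since the TMM factors that multiply library totals were 0.617 to 0.744 in iBAT. They were 1.06 to 1.44 in iWAT and 1.15 to 1.39 in eWAT. With library totals alone the sums of iBAT would be lower relative to the white depots, and the shares would be the same. The ratio of Cidea to Cidec counts, which does not depend on gene length when depots are compared, was 2.08 to 2.66 in iBAT, but 0.0120 to 0.0668 in iWAT and only 0.000386 to 0.00152 in eWAT. Each depot was separate from the next. The mean log2 ratio differed by 6.46 ± 0.42 (SE) between iBAT and iWAT, by 11.75 ± 0.32 between iBAT and eWAT and by 5.29 ± 0.52 between iWAT and eWAT. Each of these 3 differences had p = 0.00216 in a two-sided exact permutation test of 6 against 6 libraries, the smallest p that design can give, and 0.0026 after adjustment over 12 tests of 4 ratios.

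**Figure D2:**
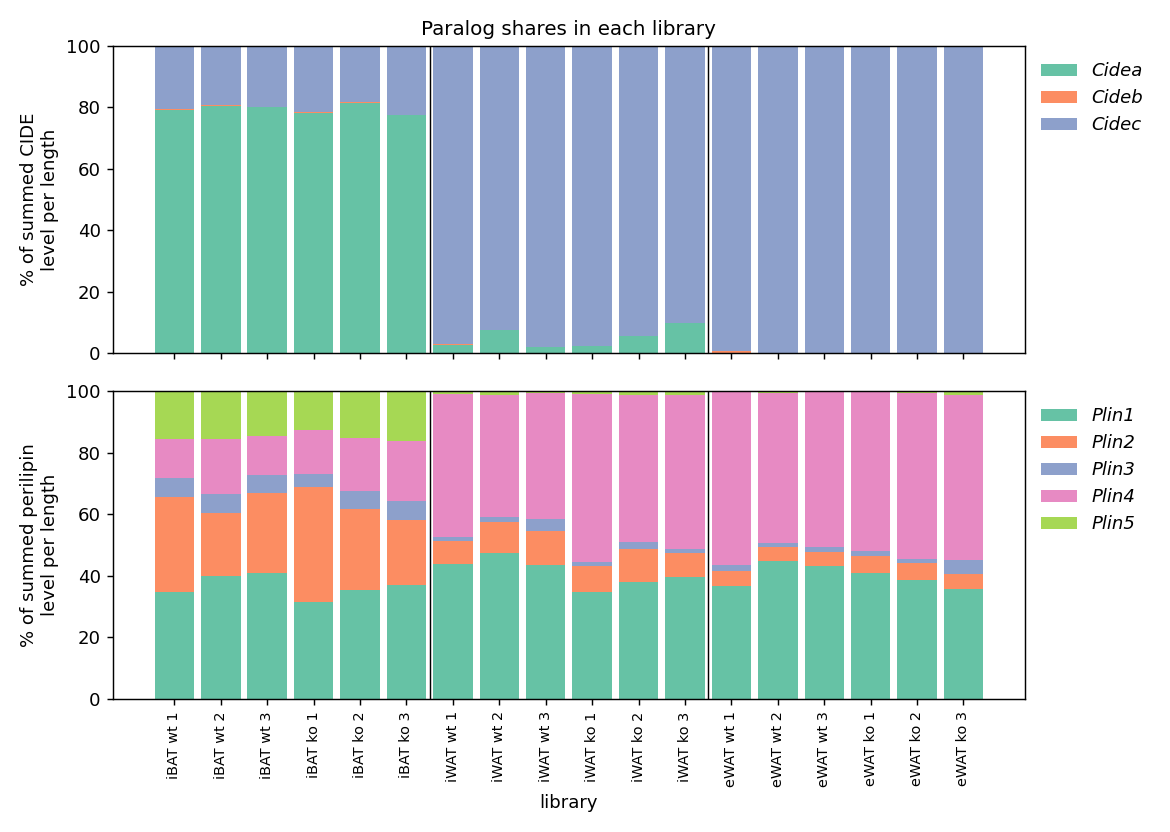
Share of each paralog in the summed level per length (percent, union of exons) of the CIDE family (upper panel) and the perilipin family (lower panel) in each of the 18 libraries. Cidea takes 77.5% to 81.5% of the CIDE level in iBAT and at most 10.01% in iWAT, and Plin5 and Plin2 take larger shares in iBAT than in either white depot.

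Cideb, known for its part in lipoprotein assembly in the liver, was the lowest member, close to the limit of detection in white fat. It had 42 to 124 counts per library in iBAT (2.70, 4.29 and 7.68 CPM as lowest, median and highest) and 3 to 7 counts in iWAT, where the highest level was 0.271 CPM. In eWAT it had 0 to 3 counts in 5 libraries, at or under the 3 counts that a count of 0 allows, and 145 counts (6.38 CPM) in wt replicate 1. All iBAT libraries were above all iWAT libraries, and the mean CPM was 27.3-fold higher. The fitted log2 fold changes for iBAT, 4.78 ± 1.17 against iWAT and 2.74 ± 1.11 against eWAT, are given as a description without a test, since Cideb was kept by the filter through iBAT and they rest on counts near 0. Against eWAT the value was 1.22 to 6.43 over 19 alternatives, and it was 6.05 without eWAT wt replicate 1, a comparison chosen after its value was seen. Exons of Nop9 on the opposite strand cover 76.3% of the exon bases of Cideb, and 72.8% of its 31-base stretches also occur in Nop9 transcripts, so reads of the pair are assigned by the model of the quantifier and its level is uncertain. Nop9, a ribosome assembly factor, was 17.9 CPM in eWAT wt replicate 1 and 16.3 to 19.4 CPM over the eWAT libraries. In the same library all 8 genes of a list of ciliated and duct epithelium, drawn up after its values were seen, exceeded the other eWAT libraries, with a sum of 192 CPM against 0.99 at most. Among them Foxj1, a regulator of motile cilia, was 45.5 CPM there. Their part in the Cideb value was not tested. For the other members, at most 5.16% of the 31-base stretches occurred in transcripts of other genes, and none were shared between members.

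Plin1 and Plin4 were the leading perilipins of white fat. The lowest, median and highest CPM of Plin1 in iBAT were 1400, 1717 and 1938, those in iWAT 596, 1977 and 2828, and those in eWAT 849.9, 2069 and 2676. The depots overlapped, and the log2 fold changes were -0.13 ± 0.32 (adjusted p = 0.756) for iBAT against iWAT, -0.23 ± 0.32 (adjusted p = 0.549) against eWAT and -0.11 ± 0.32 (adjusted p = 0.871) between iWAT and eWAT. A difference in Plin1 between depots was not detected at this spread. Limma voom called it lower in iBAT than in eWAT (-0.40, adjusted p = 0.0296), and with library totals in place of TMM it was -0.89 against iWAT (adjusted p = 0.00574), where the median over all genes was -0.95. The lowest white libraries, iWAT wt replicate 3 and eWAT ko replicate 3, were those with the lowest adipocyte marker sums.

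The lowest, median and highest CPM of Plin4 in iBAT were 553, 974 and 1077, those in iWAT 697, 2509 and 4831, and those in eWAT 1584, 3337 and 4217. It was lower in iBAT, by log2 -1.58 ± 0.35 (adjusted p = 0.00108) against iWAT and -1.84 ± 0.35 (adjusted p = 0.00029) against eWAT. All iBAT libraries were below all eWAT libraries, and they overlapped iWAT through wt replicate 3 alone. With wild type libraries alone the iWAT comparison gave -1.52 and did not pass (adjusted p = 0.0556).

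Plin5, its neighbour 1797 bp away, had the opposite pattern. Its lowest, median and highest CPM in iBAT were 222, 319 and 364, those in iWAT 4.09, 24.7 and 28.0, and those in eWAT 7.85, 10.6 and 14.3. The iBAT libraries were above all white libraries. The mean was 14.9-fold that of iWAT and 28.5-fold that of eWAT, with log2 fold changes of 3.91 ± 0.34 (adjusted p = 8.54e-08) and 4.84 ± 0.36 (adjusted p = 8.41e-09). Between the white depots, 5 of 6 iWAT libraries were above every eWAT library, at 18.5 to 28.0 CPM, and wt replicate 3 was below all of them. The log2 fold change of iWAT against eWAT was 0.93 ± 0.31 and did not pass (adjusted p = 0.0659). Without both libraries high in lymph node markers it was 1.24 and passed (adjusted p = 0.000393).

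Plin2 and Plin3, the perilipins shared by most cells, were also higher in iBAT. The lowest, median and highest CPM of Plin2 in iBAT were 644, 813 and 1738, those in iWAT 112, 308 and 456, and those in eWAT 86.8, 184 and 285. The log2 fold changes of iBAT were 1.71 ± 0.34 (adjusted p = 0.000436) against iWAT and 2.36 ± 0.34 (adjusted p = 2.05e-05) against eWAT, and that of iWAT against eWAT was 0.66 ± 0.33 (adjusted p = 0.221). Its highest iBAT libraries were replicate 1 of both genotypes, at 1211 CPM and 1738 CPM. Plin3 had 158 to 268 CPM in iBAT, compared with 44.4 to 69.8 CPM in iWAT and 57.1 to 86.2 CPM in eWAT. Its log2 fold changes were 1.86 ± 0.15 (adjusted p = 3.23e-08) and 1.62 ± 0.15 (adjusted p = 9.24e-08), and iWAT and eWAT overlapped, with -0.23 ± 0.14 (adjusted p = 0.33).

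**Figure D3:**
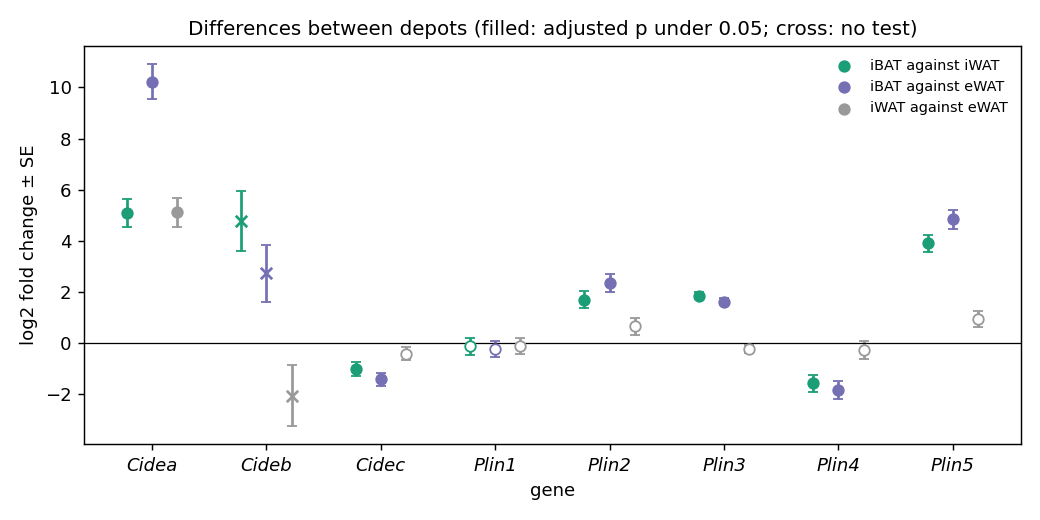
Log2 fold change (vertical axis) of each member between depots, with bars for the standard error of the edgeR fit and filled points where the adjusted p was under 0.05 and crosses for Cideb, shown without a test. Cidec and Plin4 lie below 0 and Cidea, Plin2, Plin3 and Plin5 above 0 in both comparisons of iBAT, and Plin1 has unfilled points in all 3.

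Counting libraries that do not overlap, 4 of the 7 members other than Cideb were separate between iBAT and iWAT and 6 of 7 between iBAT and eWAT, where 34.6% and 37.3% of all genes were separate. Between iWAT and eWAT 1 of 7 was separate, compared with 4.62% of all genes.

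Within a depot the genes can be ranked only per length. In iBAT, Cidea was the highest of the 8 at 2230 ± 284 CPM per kilobase of exon, followed by Cidec (568 ± 48), Plin1 (361 ± 45) and Plin2 (280 ± 122). Plin1 and Plin2 differed by less than the spread of Plin2, which was the higher in 1 of 6 libraries, and with the longest protein-coding transcript as the length Cidec (613 ± 52), Plin1 (596 ± 74) and Plin2 (520.3 ± 227) differed by less than their spread. Plin4 (156 ± 33) and Plin5 (149 ± 24) differed by less than their spread, and Plin3 (57.7 ± 9.6) and Cideb (3.34 ± 1.41) were lowest. In eWAT, Cidec led at 1515 ± 423 CPM per kilobase, followed by Plin4 (551 ± 153) and Plin1 (426 ± 137), which differed by less than their spread, then Plin2 (54.0 ± 18.5), Plin3 (18.7 ± 3.1), Plin5 (5.25 ± 1.35) and Cidea (1.87 ± 0.97). The order in iWAT was the same for the first 4 genes, with Cidec at 1142 ± 397, Plin4 at 466 ± 250, Plin1 at 395 ± 180 and Plin2 at 85.3 ± 34.2, and Cidea followed at 65.1 ± 49.4, within the spread of Plin2. By the mean, Cidea thus moved from the first place in iBAT to the last but Cideb in eWAT. In eWAT wt replicate 1 Cideb (4.28) was above Cidea (2.80).

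With TMM, the summed perilipin level per kilobase was 1004 ± 206 CPM in iBAT, 972 ± 454 in iWAT and 1055 ± 300 in eWAT (SD, n = 6). These sums differed by less than the spread, a likeness that depends on the scaling. Library totals alone would put iBAT lower relative to the white depots. The composition, which does not depend on the scaling, differed. Plin1 made up 36.5 ± 3.5% in iBAT, 41.1 ± 4.6% in iWAT and 39.9 ± 3.5% in eWAT. Plin4 made up 15.6 ± 2.8% in iBAT against 46.6 ± 5.7% and 52.4 ± 2.7% in the white depots. Plin2 took 27.0 ± 6.3% in iBAT against 9.21 ± 1.53% and 5.06 ± 0.45%, and Plin5 15.01 ± 1.26% against 1.04 ± 0.30% and 0.582 ± 0.386%. With the longest protein-coding transcript as the length, Plin1 rather than Plin4 was the largest share in iWAT (50.2% against 34.8%) and eWAT (50.4% against 40.3%), so the order of these genes in white fat rests on the length used.

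Ratios to Plin1 compare perilipin use within a library. The Plin5 to Plin1 count ratio was 0.159 to 0.200 in iBAT, compared with 0.00688 to 0.0155 in iWAT and 0.00294 to 0.0169 in eWAT, and the log2 ratio of iBAT was higher by 4.07 ± 0.19 (SE) than that of iWAT and by 5.01 ± 0.36 than that of eWAT. The Plin2 to Plin1 ratio was 0.387 to 0.897 in iBAT, compared with 0.130 to 0.216 in iWAT and 0.0782 to 0.108 in eWAT. Its 3 depots did not overlap, with log2 differences of 1.71 ± 0.21 between iBAT and iWAT, 2.52 ± 0.20 between iBAT and eWAT, and 0.81 ± 0.14 between the white depots. The Plin4 to Plin1 ratio was 0.395 to 0.647 in iBAT, compared with 1.04 to 1.97 in iWAT and 1.36 to 1.89 in eWAT, and iBAT was lower by log2 -1.42 ± 0.17 and -1.63 ± 0.13. These 7 differences each had p = 0.00216 in the two-sided exact permutation test, the smallest possible, and an adjusted p of 0.0026. Between iWAT and eWAT, Plin5 to Plin1 differed by 0.94 ± 0.40 (exact permutation p = 0.0476, adjusted p = 0.0519) and Plin4 to Plin1 by -0.22 ± 0.16 (exact permutation p = 0.203, adjusted p = 0.203), and neither passed. The highest eWAT value of Plin5 to Plin1 was that of ko replicate 3, the library high in epididymis markers. Without it the difference was 1.25 (exact permutation test, adjusted p = 0.00472).

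**Figure D4:**
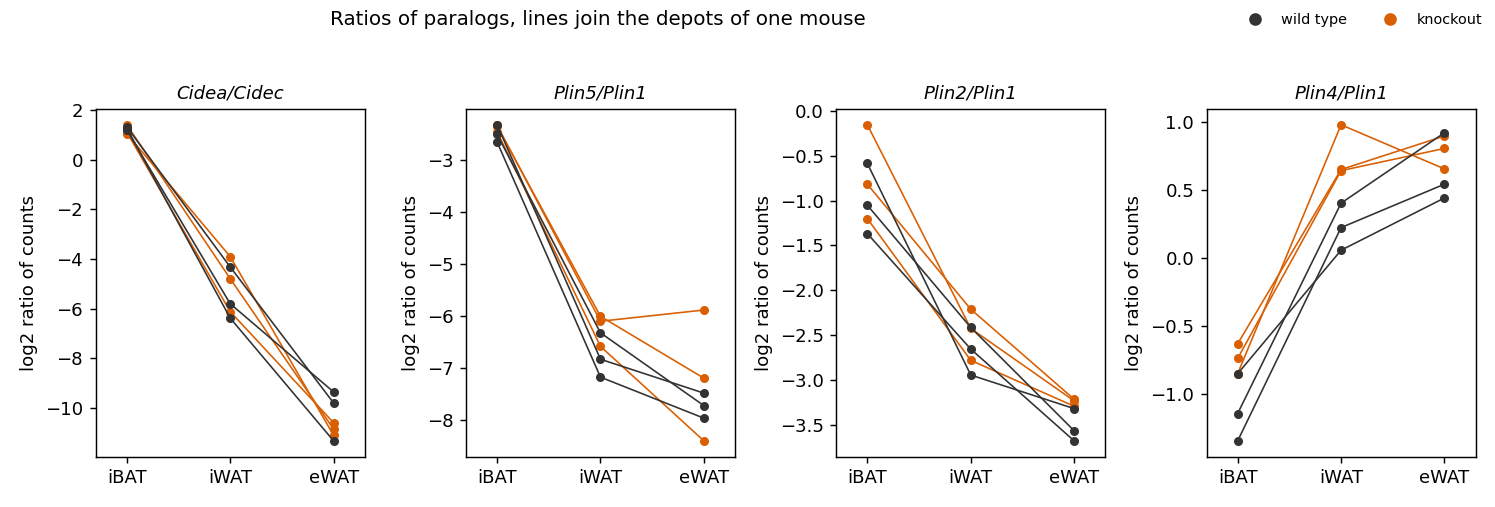
Log2 ratio of counts (vertical axis) for 4 pairs of paralogs by depot, with 1 point per library, lines joining the 3 depots of a mouse, wild type in black and knockout in orange. Cidea/Cidec and Plin2/Plin1 fall from iBAT through iWAT to eWAT in all 6 mice, and Plin4/Plin1 is higher in both white depots than in iBAT in all 6.

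Proteins that act with CIDEs and perilipins were examined with a list of 24 genes, of which 22 were tested. Between iBAT and iWAT, 7 were higher and 2 lower in iBAT and 13 did not pass. Between iBAT and eWAT, 6 were higher and 4 lower and 12 did not pass, and between iWAT and eWAT 2 were higher, 2 lower and 18 did not pass. The 4 calls between the white depots became 1 to 4 when single mice or libraries were left out and 0 with wild type or knockout libraries alone. With library totals in place of TMM, 3 were higher and 14 lower in iBAT than in iWAT, and 4 higher and 14 lower than in eWAT. The medians were 0.31, 0.18 and -0.055 on the log2 scale, compared with -0.14, -0.17 and 0.010 over all genes, and the shares passing, 40.9%, 45.5% and 18.2%, stood beside 54.3%, 54.6% and 10.2% of all genes. With library totals 77.3% and 81.8% of the partners passed in the iBAT comparisons, beside 76% and 78.7% of all genes.

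Among 7 lipases and their regulators, Pnpla2 (ATGL), which starts triglyceride breakdown, was higher in iBAT by log2 1.07 ± 0.26 (adjusted p = 0.00207) against iWAT and 1.47 ± 0.26 (adjusted p = 0.000133) against eWAT. The call against iWAT was lost with library totals in place of TMM (0.30, adjusted p = 0.186) and with wild type libraries alone (1.09, adjusted p = 0.0851). G0s2, its inhibitor, was higher against iWAT by 1.30 ± 0.44 (adjusted p = 0.0186), a call lost in 6 of 20 alternatives, at 0.53 to 1.35, among them library totals (0.53, adjusted p = 0.228), wild type libraries alone (0.77, adjusted p = 0.404) and leaving out the lymph node libraries (0.99, adjusted p = 0.0708), ko replicate 1 or 2, or wt replicate 2. Its value of 0.80 ± 0.43 against eWAT did not pass (adjusted p = 0.125) and was -0.072 with library totals, but passed without wt replicate 3 (0.99, adjusted p = 0.0198). The remaining 5, Pnpla3, Abhd5, Hilpda, Lipe and Mgll, did not pass in these comparisons. Among the droplet formation and triglyceride synthesis genes, Acsl3, an acyl-CoA synthetase of nascent droplets, was higher in iBAT by 2.04 ± 0.38 and 2.18 ± 0.38 (adjusted p = 0.000233 and 0.00012), and Tmem159 (Ldaf1), the partner of seipin, was lower by -1.02 ± 0.14 and -1.71 ± 0.15 (adjusted p = 1.71e-05 and 4.48e-08). Dgat1, Dgat2, Bscl2 and Fitm2 did not pass.

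Of 9 surface, trafficking and contact genes tested, 4 were higher and 1 lower in iBAT than in iWAT. Against eWAT 4 were higher and 3 lower, beside 54.3% and 54.6% of all genes passing in these comparisons. Calls with an absolute log2 fold change of 1 or less are counted here but not named. Clstn3 was the most different. Its levels of 473 ± 106 CPM in iBAT, 60.5 ± 32.1 in iWAT and 21.8 ± 9.99 in eWAT gave log2 fold changes of 2.97 ± 0.43 (adjusted p = 2.46e-05), 4.44 ± 0.46 (adjusted p = 4.84e-07) and, for iWAT against eWAT, 1.47 ± 0.41 (adjusted p = 0.0334), a call lost in 9 of 20 alternatives, at 1.25 to 1.61. The gene also encodes a form found on droplets of brown fat, and gene counts do not separate the forms. Mfn2, a mitochondrial fusion protein that binds PLIN1, was higher in iBAT by 1.32 ± 0.23 and 1.49 ± 0.23 (adjusted p = 0.000161 and 4.74e-05). The caveolar genes Cav1 and Cavin1 were lower in iBAT than in eWAT, by -1.52 ± 0.27 (adjusted p = 0.000147) and -1.07 ± 0.23 (adjusted p = 0.00073), and did not pass against iWAT, with -0.56 and -0.53. They passed there at -0.85 and -0.76 without the lymph node libraries (adjusted p = 0.00292 and 0.00312), at -1.32 and -1.29 with library totals (adjusted p = 3.81e-05 and 1.73e-05), at -0.76 and -0.67 with limma voom (adjusted p = 0.000196 and 0.000172), and also without wt replicate 3 and with at least 10 counts in each library. Cavin1 alone passed there with DESeq2 (-0.51, adjusted p = 0.0387) and without the eWAT library of ko replicate 3 (-0.52, adjusted p = 0.0298).

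**Figure D5:**
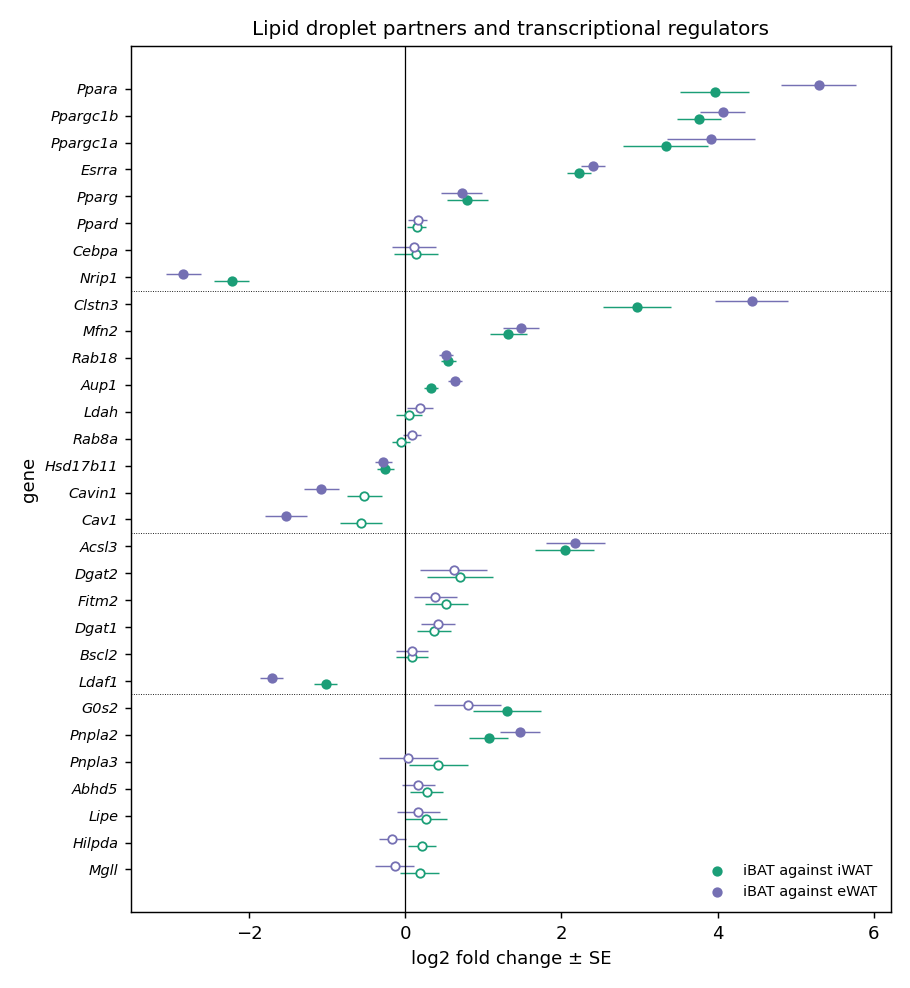
Log2 fold change (horizontal axis) of 22 lipid droplet partners and 8 transcriptional regulators comparing iBAT with iWAT (green) and with eWAT (purple), with bars for the standard error and filled points where the adjusted p was under 0.05. Dotted lines separate, from the bottom, lipases and their regulators, droplet formation, surface and contacts, and regulators. Ppara, Ppargc1a, Ppargc1b, Esrra and Clstn3 lie farthest to the right and Nrip1 farthest to the left.

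Of 8 transcriptional regulators of fat cell genes, 5 were higher and 1 lower in iBAT in each comparison, and 0 passed between iWAT and eWAT with edgeR, where 2 had an unadjusted p under 0.05. DESeq2 and limma voom each called these 2 genes there, Ppara and Nrip1, with 14.4% and 15.9% of all genes called. With edgeR, Nrip1 passed there with library totals (-0.71, adjusted p = 0.0265) and without the iWAT library of ko replicate 1 (-0.79, adjusted p = 0.0214), and Ppara without the lymph node libraries (1.58, adjusted p = 0.0113) and without wt replicate 3 (1.62, adjusted p = 0.0078). With library totals in place of TMM, 4 were higher and 3 lower in each iBAT comparison. The shares of all genes passing were 54.3% and 54.6% in the iBAT comparisons and 10.2% between iWAT and eWAT, and 76% and 78.7% in the iBAT comparisons with library totals. Ppara, the fatty acid receptor of oxidative tissues, was higher by log2 3.97 ± 0.44 (adjusted p = 1.35e-06) against iWAT and 5.30 ± 0.48 (adjusted p = 8.84e-08) against eWAT. The coactivators Ppargc1a (3.34 ± 0.54 and 3.91 ± 0.56) and Ppargc1b (3.76 ± 0.28 and 4.07 ± 0.28) and their partner Esrra (2.22 ± 0.15 and 2.40 ± 0.15) were higher as well, and Nrip1, a corepressor, was lower (-2.22 ± 0.22 and -2.84 ± 0.22). Pparg, the main regulator of fat cell genes, was higher by 0.80 ± 0.27 and 0.72 ± 0.26 (adjusted p = 0.0176 and 0.0286), calls that did not hold in 6 and 9 of 20 alternatives. The values were 0.021 and -0.13 with library totals in place of TMM, and 0.56 and 0.57 with wild type libraries alone (adjusted p = 0.263 and 0.257). With knockout libraries alone they were larger, 1.05 and 0.88, and did not pass (adjusted p = 0.052 and 0.0867). Leaving out ko replicate 1 also ended both calls, at 0.69 and 0.65. The call against iWAT was lost as well without ko replicate 2 (0.76) and without the lymph node libraries (0.57). That against eWAT was lost without wt replicate 1 (0.70), ko replicate 3 (0.58), or the eWAT library of either (0.67 and 0.56). It was also lost without the filter on low counts (0.68). Ppard and Cebpa did not pass.

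The protein-coding genes with the levels most like those of 4 members were listed by Pearson's r of log2 CPM over the 18 libraries, which share depots and mice, as a description. For Cidea they were Cox8b (r = 0.989), P2rx5 (0.986) and Acsf2 (0.985), and for Plin5 they were Slc25a51 (0.99), Abhd4 (0.989) and Pfkl (0.988). Cox8b, a subunit of cytochrome c oxidase, had a mean of 1141 CPM in iBAT, compared with 65.0 in iWAT and 3.40 in eWAT. For Cidec they were Kctd17 (0.967), Aoc3 (0.965) and Rxra (0.964), and for Plin1 they were Syap1 (0.958), Ltbp3 (0.956) and Cd36 (0.956). Cd36, a fatty acid transporter, had a mean of 2211 CPM in iBAT, compared with 2312 in iWAT and 2832 in eWAT.

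The deletion of Gm15551 was compared with wild type to ask whether it changed droplet protein genes. None of the 8 members passed across tissues, where 0.00534% of all genes passed and 411 genes had an unadjusted p under 0.05. The members' log2 fold changes across tissues ranged from -1.26 (Cideb) to 0.26, with adjusted p close to 1. Within iBAT they ranged from -0.081 to 0.36, within iWAT from -0.089 to 0.46 and within eWAT from -4.91 (Cideb) to 0.30, with adjusted p of 1 throughout. In these comparisons 0%, 0% and 0.00534% of all genes passed, the single gene being Gm15551 itself (log2 fold change -7.67, adjusted p = 0.0318), and 238, 415 and 814 genes had an unadjusted p under 0.05. None of the 8 members passed the test of an interaction of genotype with tissue, nor did any other gene (0%, with 264 genes at an unadjusted p under 0.05). DESeq2 and limma also called 0 members in every genotype comparison.

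The Cideb value in eWAT (-4.91 ± 1.502, unadjusted p = 0.00529, edgeR) rested on wt replicate 1, and without it the value was -0.13 ± 1.11. In none of the 24 pairs of member and depot were the 3 knockout libraries all above or all below the 3 wild type libraries, which was the case for 4.94%, 4.92% and 5.25% of all genes in iBAT, iWAT and eWAT. For Plin4 in iWAT, the wild type libraries had 3744 CPM, 2349 CPM and 697 CPM and the knockout libraries 4831 CPM, 1864 CPM and 2669 CPM, and for Cidea in iBAT 2566 CPM, 2459 CPM and 2237 CPM against 2281 CPM, 3081 CPM and 2294 CPM. The ranges overlapped in both. With 3 mice per genotype the standard errors of the perilipins within a depot were 0.21 to 0.51, and a change had to be several times its error to pass over all genes tested.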

How the data were processed

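Paired-end libraries of polyadenylated RNA were analysed. Reads were trimmed with cutadapt and assigned with Salmon, by the authors, on GENCODE M22 or its union with RNAcentral (GRCm38), and the deposited table gives whole-number estimated counts for each gene, not normalised. The reference chosen, strand, tool versions and the summing of transcripts are not given in the sources used here.

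Genes were tested with edgeR 4.0.16 (R 4.3.3, quasi-likelihood F-test, TMM, filterByExpr by group, 18728 genes, Benjamini-Hochberg over all genes, threshold 0.05), with terms for tissue and genotype or 1 mean per group. An SE is the log2 fold change over the root of F. Levels per length used the union of exons in GENCODE M21. Log2 ratios of counts plus 0.5 were compared by exact permutation (scipy 1.17.1), adjusted over 12 tests. Scripts were tested on simulated data. Alternatives used DESeq2 1.42.0 and limma 3.58.1.

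The members and gene lists were chosen with earlier results of these data known. Named were the members, partners and regulators past the threshold with an absolute log2 fold change over 1, Ucp1, and the 3 genes most like each of 4 members. Pparg, Nop9 and the epithelial genes were named after their values were seen. Mouse identifiers in the labels pair the tissues. Deviations of libraries of the same mouse had r of -0.17 to 0.33 (median 0.057) between tissues. For different mice of the same genotype r was -0.27 to 0.20 (median -0.037). No label pairs knockout with wild type mice. Floors cover counting error only.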

Additional observations from a re-analysis of the deposited data

Results flagged for a closer look

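For each member in each depot, and for each of the 4 ratios, the distance of the highest or lowest of the 6 libraries from its neighbour was divided by the whole range, 36 comparisons in all. In 1 of them the quotient exceeded Dixon's critical value, which chance exceeds in about 1 in 20 groups. This was Cideb in eWAT, where wt replicate 1 stood at 6.38 CPM (quotient 0.977) and the other 5 libraries at 0 to 0.149 CPM. The same library had 192 CPM of ciliated and duct epithelium genes, whose part in the Cideb value was not tested. No member passed the interaction of genotype with depot. A separation of the genotypes in opposite directions in different depots could not occur, since they were not separate for any member in any depot.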

How the results depend on the processing

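The 20 alternatives for the depot comparisons kept the direction of all members in both iBAT comparisons except Plin1, which was -0.25 to 0.013 against iWAT when single mice or libraries were left out. Library totals without TMM moved the median over all genes to -0.95 (iBAT against iWAT) and -1.04 (iBAT against eWAT). Plin1 then passed at -0.89 and -1.09, close to those medians, and 17 and 18 partners passed in place of 9 and 10. Between iWAT and eWAT, the number of members passing rose from 1 to 2 with DESeq2 and without the lymph node libraries (Cidea and Plin5) and to 3 with limma voom (Plin2 as well), where the share of all genes went from 10.2% to 14.4%, 7.93% and 15.9%, and was 1 to 2 when single mice or libraries were left out, 2 without wt replicate 3. Directions that did not pass were reversed for Cideb (1.48 with knockout libraries only, 1.99 with limma voom, -2.57 to 1.31 without single mice or libraries, the positive values where eWAT wt replicate 1 was left out), Plin1 (0.22 without the lymph node libraries, -0.31 to 0.074 without single mice or libraries) and Plin4 (0.084 without the lymph node libraries). The partner count was 5 with wild type libraries only in iBAT against iWAT (37.8% of all genes). In iWAT against eWAT it was 0 with wild type or with knockout libraries only (1.42% and 0.703% of all genes), 2 without the lymph node libraries (7.93%) and 1 to 4 without single mice or libraries (3.83% to 10.2%). The ratio Plin5/Plin1 between iWAT and eWAT ranged from 0.76 to 1.25 without single mice or libraries and passed without ko replicate 3 or its eWAT library. With the replicate block of the mouse, 6, 6 and 1 of the 7 members other than Cideb passed in the depot comparisons (55.6%, 55.7% and 9.25% of all genes), and the exact permutation by sign flips within mouse gave p = 0.0312, the smallest possible (0.0375 adjusted), for the ratio differences that passed. The replicate number as a block of the genotypes gave 0 members. The filter on 10 counts in all libraries removed Cideb.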

Other observations

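The Plin4 to Plin1 log2 ratio was higher in all 3 knockout than in all 3 wild type libraries in iBAT (-0.74 ± 0.11 against -1.11 ± 0.25, SD, n = 3) and in iWAT (0.76 ± 0.19 against 0.23 ± 0.17, SD, n = 3). The closest values in iBAT were -0.85 in either genotype, and in iWAT 0.64 in the knockout and 0.40 in the wild type. In eWAT the genotypes overlapped (0.79 ± 0.12 against 0.64 ± 0.25). Plin2 to Plin1 was higher in all 3 knockout libraries of eWAT (-3.25 ± 0.04 against -3.52 ± 0.18). These were 3 of 12 comparisons of 4 ratios in 3 depots, looked at after the values were seen. Each had p = 0.1 in the two-sided exact permutation test, the smallest that 3 against 3 can give, and 0.4 after adjustment over the 12, so none passed.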
